A study of Capra hircus with 9 samples.

Results

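The genes described here are 3 mucin genes (MUC1, MUC15 and MUC20) and 7 genes of the polypeptide N-acetylgalactosaminyltransferases (GALNT1, GALNT2, GALNT3, GALNT6, GALNT7, GALNT12 and GALNT15), found by their symbols. They make up 10 of the 23499 genes in the table of mammary gland expression that the authors deposited. The study compared whole mammary tissue of healthy goats of the Laoshan dairy breed from China, all in the third parity, 4 years old on average and kept on 1 farm under the same management. The groups were late lactation (LL, 240 days postpartum, 3 goats), the dry period (DP, 300 days postpartum, 3 goats) and late gestation (LG, 140 days after mating, 3 goats), with 1 library per goat and a different goat at each stage. The labels name no treatment and no engineered allele. The 10 genes were selected on their FPKM in LL, DP and LG, which were already known, so their stage differences are given as a description without p-values. The choice of these genes supports nothing about mucin genes as a class.

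Mucins are large glycoproteins whose serine- and threonine-rich stretches are densely covered with O-linked sugar chains. GALNT enzymes start these chains in the Golgi apparatus by adding N-acetylgalactosamine to serine or threonine, and other enzymes then extend the chain and cap it with sialic acid. MUC1 and MUC15 span the apical membrane of secretory epithelium, and in milk both are carried on the membrane that wraps the fat globule. Single GALNT enzymes differ in the peptides they prefer, and some act mainly on peptides that already carry a sugar.

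All values are FPKM (fragments per kilobase of transcript, normalized to the fragments of the library), so levels of different genes are set per length. FPKM is a share of the library, and a few genes filled much of the LL libraries. Summed FPKM was 940676 to 1157015 in LL libraries, 601250 to 616268 in DP libraries and 733277 to 768157 in LG libraries, and the factors that bring the median gene to the same level were 0.498 to 0.606, 1.439 to 1.528 and 1.198 to 1.314. Levels are therefore given in FPKM as deposited, and every log2 fold change is a difference of log2(FPKM + 1) after division by these factors, which understates the change of low genes. Without this step the median over the 14701 genes tested stood at 1.09 (log2) in DP against LL, at 0.93 in LG against LL and at -0.18 in LG against DP. A gene was called different where limma, which fits a linear model to every gene, gave a Benjamini-Hochberg adjusted p below 0.05 together with a log2 fold change of 1 or more in either direction. An FPKM value does not tell how many reads lie behind it, so the low levels carry no counting error here. The labelled tissue was checked with markers of luminal epithelium (KRT8, KRT18, KRT19, EPCAM, CDH1 and ELF5), all 6 of which were above 0 in all 9 libraries, with summed levels of 496 to 612 FPKM in LL libraries, 410.5 to 753 in DP libraries and 904 to 1170 in LG libraries. In bulk tissue, fewer cells of a type and less RNA per cell cannot be told apart.

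MUC1 and MUC15 were highest in LL, and MUC20 was highest in LG. In LL, MUC15 was the highest of the 10 genes with a mean of 57.8 FPKM, whereas in DP GALNT1 was the highest with 28.6 FPKM and the 3 mucins were all below 6 FPKM in every library. The GALNT genes fell into GALNT3, which was highest in LL, and the other 6, which were highest in DP, with and without scaling.

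**Figure D1:**
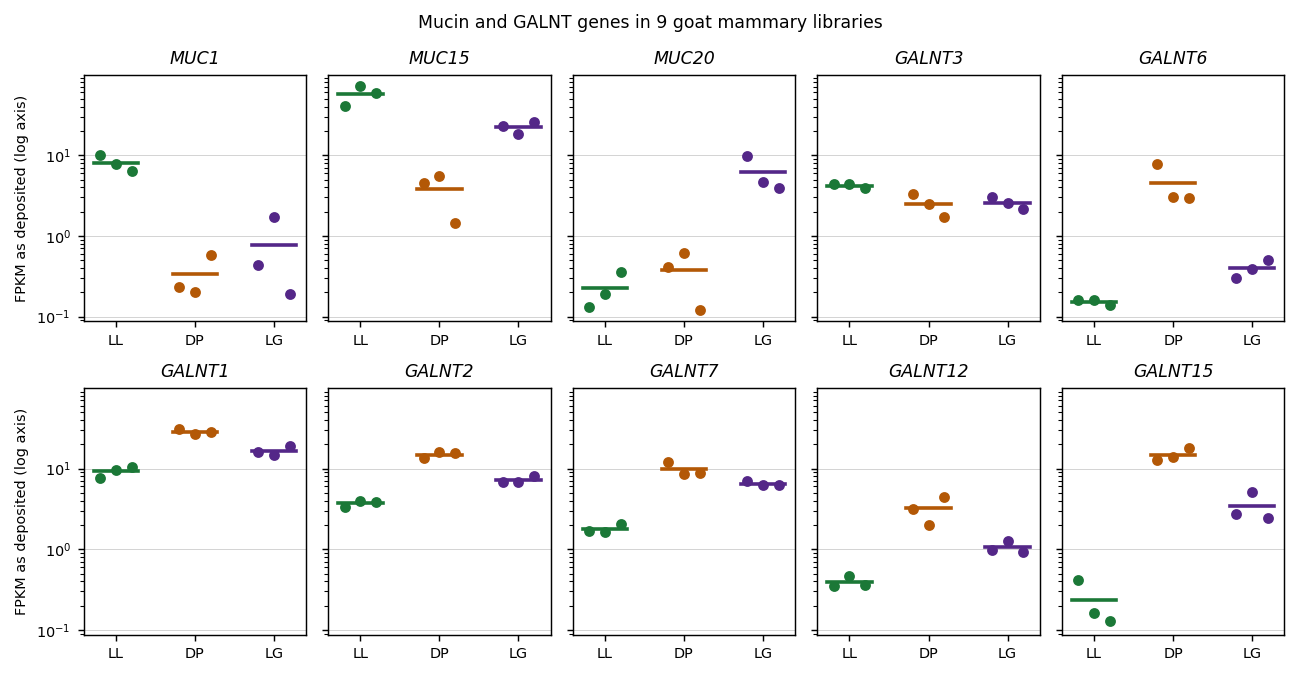
Deposited FPKM (log axis) of the 10 genes in 9 libraries, with 1 point per goat and a bar at the mean of each stage. MUC1 and MUC15 were highest in the 3 LL libraries, MUC20 in the 3 LG libraries and GALNT15 and GALNT6 in the 3 DP libraries.

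MUC15 (gene ID 102178191, chromosome 15, 25673592 to 25686763, plus strand) encodes a heavily glycosylated membrane mucin of the milk fat globule. It was at 40.91, 72.59 and 59.84 FPKM in the LL libraries, at 4.49, 5.48 and 1.45 in DP and at 23.15, 18.44 and 25.87 in LG. The 3 stages did not overlap, with LL highest, LG between and DP lowest. The log2 fold change was -4.94 (standard error 0.31) for DP against LL, -2.45 (standard error 0.31) for LG against LL and 2.49 (standard error 0.31) for LG against DP. MUC15 lies inside the span of ANO3 on the opposite strand, and the TruSeq RNA v2 kit does not mark strand. Reads of the pair therefore cannot be told apart by strand where their exons overlap, and exon positions were not examined. ANO3 itself was at 0.15 to 0.63 FPKM in the 9 libraries.

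MUC1 (gene ID 102190921, chromosome 3, 104700393 to 104705235, minus strand) encodes the best studied membrane mucin of luminal epithelium. Its level was 10.08, 7.76 and 6.45 FPKM in the LL goats, 0.23, 0.20 and 0.58 in the DP goats and 0.44, 1.71 and 0.19 in the LG goats. Every LL library was above every other library, while DP and LG overlapped. LG replicate 2 stood highest outside lactation. The log2 fold change was -3.66 (standard error 0.29) for DP against LL, -3.32 (standard error 0.29) for LG against LL and 0.34 (standard error 0.29) for LG against DP. MUC15 was higher in every LG library than in every DP library, and MUC1 was not.

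MUC20 (gene ID 102174698, chromosome 1, 70225887 to 70241268, plus strand) encodes a membrane mucin known to bind the hepatocyte growth factor receptor MET. It was at 0.13, 0.19 and 0.36 FPKM in the LL goats, 0.41, 0.61 and 0.12 in the DP goats and 9.82, 4.68 and 3.97 in the LG goats. The LG libraries were all above the other 6, which overlapped each other. Its log2 fold change was 2.01 (standard error 0.27) for LG against LL, 2.17 (standard error 0.27) for LG against DP and -0.16 (standard error 0.27) for DP against LL. MUC4, the next mucin gene on the same chromosome and on the opposite strand, had 0.02 to 0.03 FPKM in LL libraries, 0.04 to 0.12 in DP libraries and 0.11 to 0.35 in LG libraries, levels too low to be tested.

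Ratios within a library do not depend on the scaling between libraries. The ratio of MUC1 to MUC20 was 77.5, 40.8 and 17.9 in the LL goats, 0.561, 0.328 and 4.83 in the DP goats and 0.0448, 0.365 and 0.0479 in the LG goats. MUC1 therefore exceeded MUC20 in all LL libraries, and MUC20 exceeded MUC1 in all LG libraries. MUC15 exceeded MUC1 in all 9 libraries, by ratios of 4.06 to 9.35 in LL libraries, 2.50 to 27.4 in DP libraries and 10.8 to 136 in LG libraries. The MUC15 to MUC1 ratio was higher in every LG library than in every LL library, and that of DP overlapped both. These pairs were chosen after their values were seen.

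**Figure D2:**
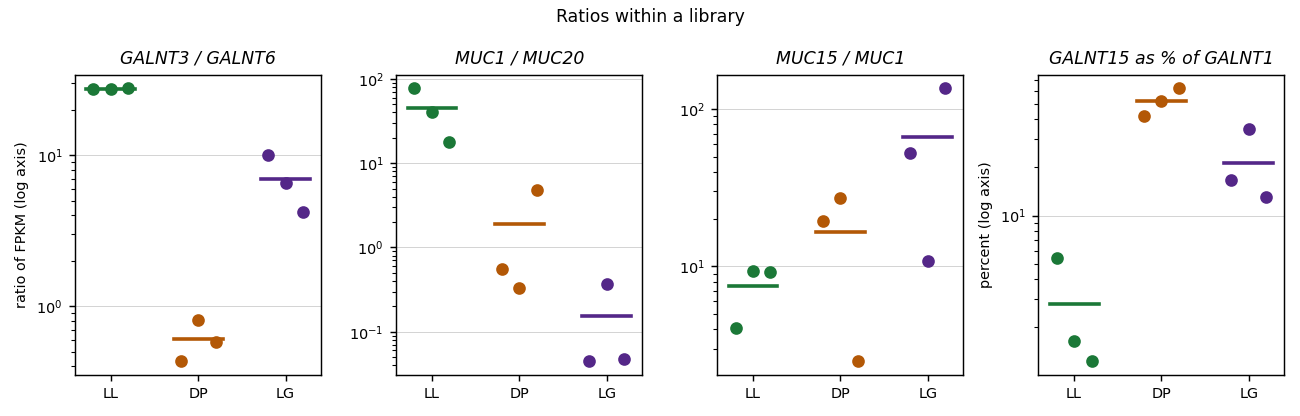
Ratios of FPKM within each library (log axes, the rightmost panel as percent), with 1 point per goat and a bar at the stage mean. GALNT3 to GALNT6 was 27.3 to 27.8 in LL, below 1 in DP and 4.24 to 10.1 in LG, and MUC1 to MUC20 was below 1 in all LG libraries.

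GALNT3 (gene ID 102179608, chromosome 2, 105718933 to 105742775, minus strand), best known for glycosylating the phosphate hormone FGF23, was the 1 gene of the 7 that was highest in LL. It had 4.37, 4.37 and 3.89 FPKM in the LL goats, 3.34, 2.46 and 1.72 in the DP goats and 3.02, 2.54 and 2.16 in the LG goats. LL stood above both other stages without overlap, and DP and LG overlapped. The log2 fold change was -1.70 (standard error 0.17) for DP against LL, -1.50 (standard error 0.17) for LG against LL and 0.20 (standard error 0.17) for LG against DP. Without scaling the first 2 values were -0.60 and -0.55 and GALNT3 was not called.

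GALNT6 (gene ID 102187194, chromosome 5, 28093756 to 28133303, plus strand) encodes the closest relative of the GALNT3 enzyme. It was at 0.16, 0.16 and 0.14 FPKM in the LL goats, 7.69, 3.05 and 2.95 in the DP goats and 0.30, 0.39 and 0.51 in the LG goats. All DP libraries were above the other 6, with DP replicate 1 highest. Its log2 fold change was 1.59 (standard error 0.24) for DP against LL, 0.04 (standard error 0.24) for LG against LL and -1.55 (standard error 0.24) for LG against DP. The GALNT3 to GALNT6 ratio was 27.3, 27.3 and 27.8 in the LL goats, 0.434, 0.807 and 0.583 in the DP goats and 10.1, 6.51 and 4.24 in the LG goats, so the more abundant of this related pair was GALNT6 in DP and GALNT3 in the other stages. This ratio was also chosen after its values were seen.

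GALNT15 (gene ID 102182734, chromosome 1, 153021184 to 153065265, plus strand) encodes a less studied member of the family and had the largest log2 fold change among the 10 genes that were higher in DP than in LL. It was at 0.42, 0.16 and 0.13 FPKM in the LL goats, 12.82, 13.96 and 17.80 in the DP goats and 2.70, 5.14 and 2.46 in the LG goats. The 3 stages did not overlap. The log2 fold change was 2.95 (standard error 0.24) for DP against LL, 1.35 (standard error 0.24) for LG against LL and -1.60 (standard error 0.24) for LG against DP. GALNT15 came to 1.23% to 5.46% of the GALNT1 level in LL libraries, 41.9% to 62.6% in DP libraries and 13.0% to 34.6% in LG libraries.

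GALNT12 (gene ID 102187220, chromosome 8, 63512643 to 63544974, plus strand), known for its expression in the gut, followed the same order at a low level. It was at 0.35, 0.46 and 0.36 FPKM in the LL goats, 3.17, 2.01 and 4.49 in the DP goats and 0.99, 1.27 and 0.92 in the LG goats. The FPKM values of the 3 stages did not overlap, but after scaling LL and LG did. The log2 fold changes of 0.87 (standard error 0.19) for DP against LL, 0.11 for LG against LL and -0.76 (standard error 0.19) for LG against DP were below the threshold. The change in DP against LL was called with a pseudocount of 0.1 (1.44), without scaling (1.56) and without DP replicate 2 (1.04), and was 0.32 with quantile normalization. Quantile normalization also turned LG against LL from 0.11 to -0.36. In LG against DP, GALNT12 was called lower with a pseudocount of 0.1 (-1.21).

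GALNT1 (gene ID 102174078, chromosome 24, 21684612 to 21763072, minus strand) and GALNT2 (gene ID 102186274, chromosome 28, 42901636 to 43083748, minus strand) encode broadly expressed enzymes that begin O-glycosylation on bare peptides. GALNT1 was at 7.69, 9.71 and 10.56 FPKM in the LL goats, 30.61, 26.71 and 28.44 in the DP goats and 16.21, 14.87 and 18.93 in the LG goats. GALNT2 was at 3.37, 3.99 and 3.80 FPKM in the LL goats, 13.38, 15.81 and 15.53 in the DP goats and 6.80, 6.76 and 8.08 in the LG goats. For both genes the deposited FPKM of the 3 stages did not overlap, with DP highest and LL lowest, but most of this difference was shared by the median gene. After scaling, GALNT1 changed by 0.20 (standard error 0.13) and GALNT2 by 0.52 (standard error 0.12) on the log2 scale from LL to DP, and LG turned from above LL to below it. The log2 fold change of LG against LL was -0.31 for GALNT1 and -0.20 for GALNT2 after scaling, against 0.78 and 0.80 without it. In LG against DP both genes were lower, by -0.51 and -0.72 with scaling and by -0.75 and -0.95 without it.

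GALNT7 (gene ID 102185180, chromosome 8, 5539535 to 5673361, plus strand) encodes an enzyme that prefers peptides already carrying N-acetylgalactosamine. It was at 1.68, 1.65 and 2.07 FPKM in the LL goats, 12.21, 8.51 and 8.89 in the DP goats and 6.98, 6.23 and 6.31 in the LG goats, and the 3 stages did not overlap. After scaling it was still higher in every DP and LG library than in any LL library, with log2 fold changes of 0.84 (standard error 0.13) for DP against LL and 0.55 (standard error 0.13) for LG against LL. Neither reached the threshold of 1. Without scaling both were called, at 1.94 and 1.42, and with a pseudocount of 0.1 the first was called at 1.01.

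**Figure D3:**
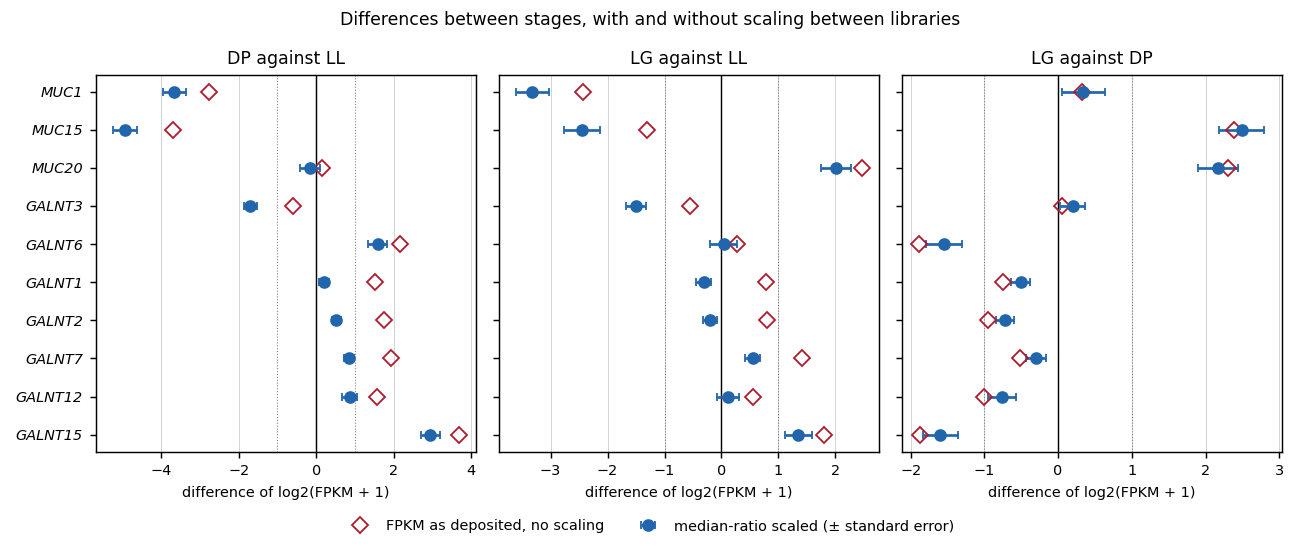
Difference between stages of log2(FPKM + 1) for each of the 10 genes, after median-ratio scaling (filled circles, with standard error) and without scaling (open diamonds). Dotted lines mark a difference of 1. In DP against LL scaling moved GALNT1 from 1.53 to 0.20 and GALNT3 from -0.60 to -1.70.

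All 10 genes passed the filter on low values (at least 0.5 FPKM in 3 libraries). For 3 of them (MUC1 through LL, GALNT6 through DP and MUC20 through LG) this needed the stage where they were high, since at most 2 libraries outside it reached 0.5 FPKM. In DP against LL, 2 of the 10 were called higher (GALNT6 and GALNT15) and 3 lower (MUC1, MUC15 and GALNT3), where 22.6% of all genes tested were called (13.8% higher and 8.79% lower). The scaled values did not overlap between DP and LL for 6 genes that were higher in DP and 3 that were lower, against 32.5% and 33.4% of all genes. In LG against LL, 2 were called higher (MUC20 and GALNT15) and 3 lower (MUC1, MUC15 and GALNT3), and 17.3% of all genes tested were called (10.7% higher and 6.61% lower). The scaled values of LG and LL did not overlap for 3 genes that were higher in LG and 5 that were lower, against 31.0% and 30.2% of all genes. In LG against DP, 2 were called higher (MUC15 and MUC20) and 2 lower (GALNT6 and GALNT15), where 13.3% of all genes tested were called (6.37% higher and 6.88% lower). The scaled values of LG and DP did not overlap for 2 genes that were higher in LG and 6 that were lower, against 25.1% and 22.8% of all genes. The median log2 fold change of the 10 genes was 0.36, -0.08 and -0.41 in the 3 comparisons, and that of all genes was 0.00, 0.02 and 0.01. Because the genes were picked with these values known, the counts describe the genes and say nothing beyond them. Each pair of comparisons shares the 3 libraries of a stage, so they are not separate evidence on a gene.

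The order of the 10 genes by FPKM also differed between stages. In LL it was MUC15, GALNT1, MUC1, GALNT3, GALNT2 and GALNT7, followed by 4 genes below 0.5 FPKM that overlapped their neighbours. GALNT1 and MUC1, and GALNT3 and GALNT2, overlapped as well. In DP the order began with GALNT1, GALNT2 and GALNT15, of which the last 2 had the same mean of 14.9 FPKM, and ended with MUC20 and MUC1, whose libraries overlapped. In LG, MUC15 and GALNT1 led with overlapping libraries at means of 22.5 and 16.7 FPKM, and GALNT2, GALNT7 and MUC20 came next with means of 7.21, 6.51 and 6.16 FPKM, each overlapping the next.

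The make-up of the GALNT family was followed as the share of each gene in the summed FPKM of the 18 GALNT genes of the table, a measure that scaling between libraries cannot change. This sum (± SD, n = 3) was 26.4 ± 1.95 FPKM in LL, 53.3 ± 2.17 FPKM in LG and 107 ± 4.94 FPKM in DP. Unlike the shares, the sum does depend on scaling, and it is given as deposited. Without scaling the median gene also stood 1.09 (log2) higher in DP and 0.93 higher in LG than in LL. The 7 GALNT genes described held 75.2% of the GALNT sum in LL, 73.1% in DP and 71.0% in LG on average. GALNT1 was the largest contributor in all 9 libraries, with 31.8% to 38.1% in LL libraries, 25.7% to 28.0% in DP libraries and 28.2% to 34.0% in LG libraries. GALNT2 kept nearly the same place, with means of 14.1% ± 0.493, 13.9% ± 1.66 and 13.5% ± 0.880 (SD, n = 3) for LL, DP and LG, and its stages overlapped. The share of GALNT3 was 16.1% ± 2.04 in LL, against 2.34% ± 0.753 in DP and 4.85% ± 0.994 in LG (SD, n = 3), with no overlap between stages. GALNT15 had the opposite order, with 0.932% ± 0.702 in LL, 6.47% ± 2.87 in LG and 13.8% ± 2.17 in DP (SD, n = 3), again with no overlap. GALNT7 was the member whose share was highest in LG, at 12.2% ± 1.17 against 6.82% ± 0.710 in LL and 9.18% ± 1.72 in DP (SD, n = 3). GALNT6 held 2.66% to 7.03% in DP and less than 1% in every other library.

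**Figure D4:**
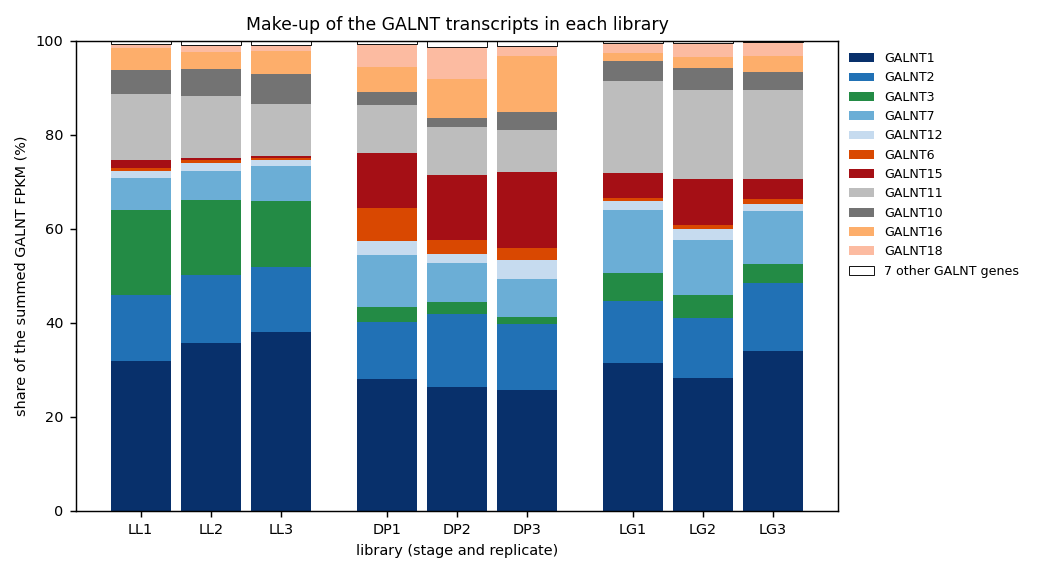
Stacked bars of the share (%) of each GALNT gene in the summed GALNT FPKM of each of the 9 libraries. GALNT3 held 16.1% on average in LL and 2.34% in DP, while GALNT15 held 0.932% and 13.8%.

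Of the other 11 GALNT genes in the table, 4 passed the filter and were tested. Their list was also drawn up with earlier results of these data known, and genes left over by a choice are not an unbiased set. Called higher in DP than in LL were 2 of these 4, GALNT16 and GALNT18. GALNT16 was at 1.14, 1.02 and 1.36 FPKM in the LL goats, 5.75, 8.43 and 13.24 in the DP goats and 0.86, 1.21 and 1.92 in the LG goats. It rose from LL to DP by 1.15 on the log2 scale (standard error 0.25, limma adjusted p = 0.00362) and was lower in LG than in DP (-1.77, standard error 0.25, limma adjusted p = 0.000691), and without DP replicate 3 the first was 0.86 and was not called. GALNT18 was at 0.23, 0.40 and 0.36 FPKM in the LL goats, 5.37, 6.91 and 2.51 in the DP goats and 1.14, 1.51 and 1.59 in the LG goats, and rose from LL to DP by 1.39 on the log2 scale (standard error 0.23, adjusted p = 0.000948, limma). With quantile normalization it was at 0.84 and was not called. GALNT10 and GALNT11 were called in none of the 3 comparisons, and their log2 fold changes were between -0.39 and 0.38. The largest share of the GALNT sum held by a gene outside the 7 was that of GALNT11, at 12.7% in LL, 9.77% in DP and 19.2% in LG on average. GALNT5, GALNT8, GALNT9, GALNT13, GALNT14, GALNTL5 and GALNTL6 stayed below 1 FPKM in all libraries.

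None of the 7 other mucin genes in the table (MUC2, MUC4, MUC5AC, MUC6, MUC13, MUC19 and MUC21), which include gel-forming mucins of gut and airway, passed the filter. Their highest value in any library was 0.35 FPKM, for MUC4. MUC3A, MUC5B, MUC7, MUC12, MUC16, MUC17 and MUC22 were not analysed here.

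Glycoproteins listed here as mucin-like covered a wider range. GLYCAM1, which in ruminants encodes a small O-glycosylated protein secreted into whey, was at 2864, 3089 and 3695 FPKM in the LL goats, 0.99, 0.95 and 0.49 in the DP goats and 244, 149.5 and 75.2 in the LG goats. From LL to DP it fell by 11.88 on the log2 scale (standard error 0.37, adjusted p = 4.91e-08, limma), was lower in LG than in LL (-5.68, adjusted p = 6.02e-06, limma) and was higher in LG than in DP (6.20, adjusted p = 1.22e-05, limma). This is the same order of stages as for MUC15, with a wider range. CD164, a sialomucin of the cell surface and endosomes, was at 120 to 151 FPKM in LL libraries, 102 to 124 in DP libraries and 76.5 to 110.0 in LG libraries, and fell by 1.67 in DP and by 1.66 in LG against LL on the log2 scale after scaling (adjusted p = 7.27e-05 and 0.000108, limma). CD164 was called in neither comparison without scaling, where the values were -0.27 and -0.49, and with quantile normalization it was not called in DP against LL (-0.74). CD34, a sialomucin of endothelial and stromal cells, was higher in DP than in LL by 1.26 and lower in LG than in DP by -1.57 (adjusted p = 0.00395 and 0.00230, limma). PODXL, which encodes podocalyxin, was lower in LG than in DP (-1.03, adjusted p = 0.000529, limma), a call lost without DP replicate 1 (-0.99) or DP replicate 3 (-0.92). EMCN, MCAM, SPN and SELPLG were called in none of the comparisons.

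Among the enzymes that extend the first sugar, GCNT1, which builds the branched core 2 chain, was called and the 3 others tested (C1GALT1, its chaperone C1GALT1C1, and GCNT4) were not. GCNT1 was at 0.05, 0.35 and 0.60 FPKM in the LL goats, 10.24, 4.16 and 4.46 in the DP goats and 4.82, 5.66 and 4.43 in the LG goats. It rose by 1.70 on the log2 scale both in DP against LL (standard error 0.28, adjusted p = 0.000901, limma) and in LG against LL (standard error 0.28, adjusted p = 0.00112, limma). C1GALT1, which makes the core 1 chain that GCNT1 branches, changed by -0.40, -0.03 and 0.37 on the log2 scale in the 3 comparisons. The ratio of GCNT1 to C1GALT1 was 0.0276 to 0.150 in LL libraries, 0.768 to 2.07 in DP libraries and 0.544 to 1.32 in LG libraries, a ratio chosen after its values were seen.

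Of the 7 capping enzymes tested, which add sialic acid, 4 were called in at least 1 comparison. ST6GALNAC2 was at 11.55, 17.38 and 15.32 FPKM in the LL goats, 7.89, 5.49 and 4.31 in the DP goats and 4.34, 5.63 and 4.39 in the LG goats. It fell by 2.48 in DP (adjusted p = 9.07e-06, limma) and by 2.51 in LG (adjusted p = 1.14e-05, limma) against LL on the log2 scale. ST6GALNAC3 was also lower in both comparisons, by 1.75 and 1.81 on the log2 scale, at 1.02 to 3.01 FPKM in LL and at most 0.34 elsewhere. It passed the filter on low values only through LL, where it was high, so no p-value is given. It lies under the mean of 2 FPKM set for named genes and was added after its values were seen. ST3GAL4 was at 0.89, 1.22 and 1.65 FPKM in the LL goats, 11.92, 13.97 and 19.31 in the DP goats and 3.18, 3.38 and 4.48 in the LG goats, and was higher in DP than in LL (1.78 on the log2 scale, standard error 0.19, limma adjusted p = 5.59e-05) and lower in LG than in DP (-1.50, limma adjusted p = 0.000401). The ratio of ST3GAL4 to ST6GALNAC2, chosen after its values were seen, was 0.0702 to 0.108 in LL, 0.60 to 1.02 in LG and 1.51 to 4.48 in DP. ST6GALNAC6 was lower in LG than in DP (-1.08, adjusted p = 0.00105, limma), a call lost without DP replicate 3 (-0.93). ST3GAL1 and ST3GAL2, which sialylate the core 1 chain, and ST6GALNAC4 were called in no comparison.

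Genes for the supply of sugar donors were followed as well. SLC35A2, which carries UDP-galactose into the Golgi apparatus, fell by 2.21 in DP against LL and was higher in LG than in DP by 1.71 (adjusted p = 3.24e-06 and 5.20e-05, limma), and without scaling the first was -0.92 and was not called. UAP1 and the sialic acid genes GNE, NANS, CMAS and SLC35A1 were called in no comparison. The value of NANS follows that of its neighbour ANP32B to within 1% of its range, so it is not a separate measurement, and SLC35A1 overlaps RARS2.

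Over these 6 groups, 30 genes were tested. In DP against LL 5 were called higher and 6 lower, in LG against LL 1 higher and 4 lower, and in LG against DP 3 higher and 5 lower. Their median log2 fold changes were -0.09, -0.18 and -0.01. The shares called of all genes tested in the same comparisons are given above.

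**Figure D5:**
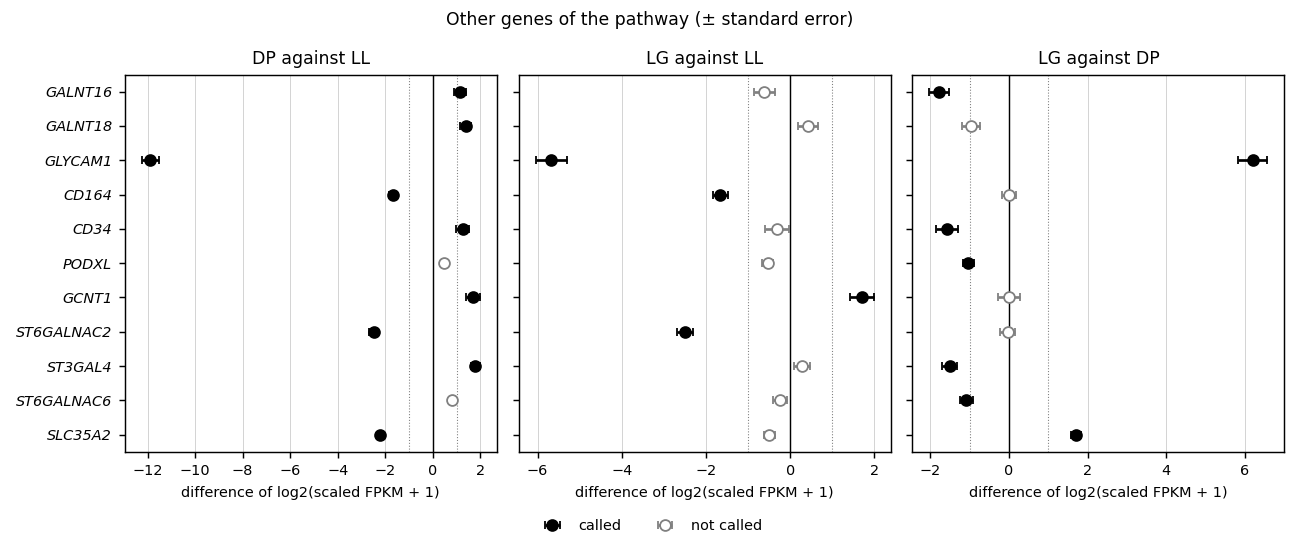
Difference between stages of log2(scaled FPKM + 1), with standard error, for 11 other genes of the pathway that the naming rule selected. Filled points are called and open points are not. GLYCAM1 spans the widest range, from -11.88 in DP against LL to 6.20 in LG against DP.

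MUC1 and MUC15 sit on the milk fat globule membrane, so the other proteins of that membrane were set beside them. All 6 of BTN1A1, XDH, MFGE8, PLIN2, CD36 and PLIN3 were called lower in DP than in LL and higher in LG than in DP. In LG against LL, 3 of the 6 were called lower (BTN1A1, XDH and MFGE8) and 3 were not called. Without scaling, PLIN3 was not called in DP against LL (-0.49), and XDH in LG against LL turned from -1.03 to 0.15. The XDH call in LG against LL was also lost with quantile normalization (-0.83), without LL replicate 1 (-0.86) and without LG replicate 1 (-0.96). BTN1A1, which encodes butyrophilin, was at 1522, 1446 and 1230 FPKM in the LL goats, 0.37, 0.32 and 0.25 in the DP goats and 37.5, 24.6 and 65.7 in the LG goats. MUC15 amounted to 2.69% to 5.02% of BTN1A1 in LL and to 39.4% to 74.9% in LG, and in DP it exceeded BTN1A1 in every library. MUC1 was at 0.524% to 0.662% of BTN1A1 in LL and at 0.289% to 6.94% in LG. From LL to DP the log2 fold change of BTN1A1 was -11.03 (adjusted p = 2.16e-08, limma), beside -4.94 for MUC15 and -3.66 for MUC1, and these differences were not tested against each other. The added 1 limits how far a gene with a low LL level can fall. With a pseudocount of 0.1 the values were -5.44 for MUC15 and -5.55 for MUC1, so the order of these mucins turned. In FPKM as deposited, the DP mean was 0.0659 of the LL mean for MUC15, 0.0416 for MUC1 and 0.000224 for BTN1A1.

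The levels were also expressed per luminal epithelium, as percent of the geometric mean FPKM of the 6 luminal markers, which was 38.9 to 44.2 FPKM in LL libraries, 50.1 to 85.4 in DP libraries and 76.1 to 93.0 in LG libraries. On this scale MUC1 was at 15.5% to 25.9% in LL libraries, 0.234% to 1.16% in DP libraries and 0.204% to 2.25% in LG libraries. MUC15 was at 105% to 164% in LL libraries, 2.89% to 7.98% in DP libraries and 24.2% to 29.9% in LG libraries, and MUC20 at 0.334% to 0.865%, 0.240% to 0.729% and 4.27% to 12.7%. The order of stages of the 3 mucins was the same as in FPKM, with the same overlaps. GALNT15 was at 0.312% to 1.08% in LL, 2.64% to 6.76% in LG and 16.3% to 35.5% in DP. GALNT1 and GALNT2 were at 19.5% to 25.4% and 8.66% to 9.13% in LL and LG together, with LL and LG overlapping, and at 31.3% to 56.8% and 18.5% to 31.0% in DP. ELF5, which is 1 of the 6 markers, fell itself from LL to DP by 4.19 on the log2 scale (limma adjusted p = 3.13e-06). This lowers the denominator in DP and raises every DP percentage. The percentages were not computed without ELF5, so the separation of GALNT1 and GALNT2 in DP is not shown to hold without it.

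Markers of other cells were summed in FPKM as deposited. On this scale the median gene also stood higher in DP and LG than in LL. The summed FPKM of 6 fibroblast markers (COL1A1, COL1A2, COL3A1, DCN, LUM and PDGFRA) was 105 to 196 in LL libraries, 768 to 3443 in DP libraries and 624 to 1177 in LG libraries, and 5 of the 6 were called higher in DP than in LL. In LG against LL, 2 of them were called higher (COL1A1, 2.12, and COL3A1, 2.42) and 0 lower. In LG against DP, 2 were called lower (DCN, -2.09, and PDGFRA, -2.41) and 0 higher. That of 6 leukocyte markers (PTPRC, CD3E, CD2, CD68, CSF1R and CD79A) was 13.2 to 18.2 in LL libraries, 79.3 to 168 in DP libraries and 33.5 to 41.8 in LG libraries, with 4 of the 5 tested called higher in DP than in LL. In LG against LL, 0 of these 5 were called higher and 1 was called lower (CD68, -1.05 on the log2 scale after scaling). Endothelial markers summed to 50.3 to 75.1, 160 to 228 and 68.6 to 105.5 FPKM, with 0 of 5 called. The 5 basal markers in the table summed to 89.4 to 139.8, 204 to 650 and 266.5 to 395 FPKM, with 0 called in DP against LL. Adipocyte markers were near 0 except in DP replicate 1, where the 4 in the table summed to 31.1 FPKM against 1.35 to 4.32 elsewhere. Milk protein markers summed to 303700 to 407600 FPKM in LL libraries, 104 to 136.5 in DP libraries and 8656 to 12430 in LG libraries, with 5 of 5 called in each comparison. The casein genes CSN1S1, CSN1S2 and CSN3 repeat each other's values in the table to within 1% of their range, as KRT5, KRT14 and PECAM1 do those of a neighbour, so these sums hold fewer separate measurements than genes. DP replicate 1, which had the highest GALNT6, also had the highest leukocyte and adipocyte sums. DP replicate 3, with the highest GALNT15, GALNT12 and GALNT16, had the highest fibroblast sum of 3443 and the highest endothelial sum of 228. GALNT18 went the other way, with its lowest DP value (2.51 FPKM) in DP replicate 3. GALNT12 was lower in DP replicate 2 (2.01 FPKM) than in DP replicate 1 (3.17 FPKM), and the fibroblast sum was higher in DP replicate 2 (1306 against 768). Within that sum COL1A2 was at 112.96 FPKM in DP replicate 1 and 254.68 in DP replicate 2, whereas PDGFRA was at 35.36 and 35.08. The part of these cells in the DP levels of GALNT6, GALNT12, GALNT15, GALNT16, GALNT18 and ST3GAL4 was not tested.

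For each of the 10 genes the most similar genes were found among genes with a mean of at least 2 FPKM in some stage. The distance was the root mean square difference between mean-centred log2(scaled FPKM + 1) values over the 9 libraries. The 2 lowest distances to MUC1 were those of AQP3 (0.36), an aquaglyceroporin gene, and CSF2RB (0.37), a cytokine receptor subunit gene. For MUC20 they were those of LOC108637985 (0.14) and MIR30F (0.19). TOP2A (0.25), the topoisomerase of dividing cells, came next, with means of 0.707, 1.71 and 11.9 FPKM in LL, DP and LG. GALNT15 was nearest to HTRA3 (0.30), a secreted protease gene, and HOPX (0.31), and GALNT6 to S1PR4 (0.17), a sphingosine phosphate receptor gene of lymphoid cells. MUC15 had no gene nearer than 0.39, and its nearest gene with a name was SLC1A1 (0.49), a glutamate transporter gene. GALNT7 had the closest match, MAPK14 (0.05). Among the 10 genes themselves GALNT1 and GALNT2 were most alike (0.18) and GALNT15 and MUC15 least (3.28), and MUC1 and MUC15 were 1.08 apart. Since all 9 libraries fall into 3 stages, many genes share such a profile. The distances were not set against the size of a gene's change, so genes that change little on this scale lie close together.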

How the data were processed

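Mammary tissue RNA of 9 goats was sequenced from TruSeq libraries. According to the labels and the methods of the study, reads were checked with FastQC, trimmed with Trimmomatic, aligned with HISAT2 and sorted with SAMtools, and StringTie (study) or HTSeq (labels) quantified them. The table the authors deposited holds 1 value per gene and library, with no unit and no build named, and its values were read as FPKM since they hold decimals and their totals differ between libraries. Its gene spans equal those of RefSeq ARS1.2 for all 23465 identifiers that matched. All 9 value columns were used, and replicates are separate goats.

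FPKM were divided by median-ratio factors (15905 genes above 0 in all libraries), 1 was added and log2 taken. Genes reaching 0.5 FPKM in 3 or more libraries (14701) were fitted with limma 3.58.1 in R 4.3.3 (mean-variance trend, all 9 libraries, no covariates), after a test on simulated data. Ratios, shares and distances came from Python 3.11.15 (numpy 2.4.6, pandas 2.3.3). FPKM carry no read counts, so depth is unknown and no count test was run.

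The 10 genes and all gene lists were chosen with earlier results of these data known. Other genes were named when called in some comparison where the stage with the higher mean reached 2 FPKM, at most 8 per list, together with the 3 genes most like each of the 10. Each gene was compared with its 8 neighbours on either side, and none of the 10 followed a neighbour by a straight line to within 1% of its range (smallest residual 12.1%), whereas 6 of the 37 marker genes did. Same-numbered libraries of different stages come from different goats, and the main fit did not pair them. Their deviations correlated at -0.106 to 0.201, and those of differently numbered libraries at -0.223 to 0.0722. Alternatives changed the scaling, pseudocount, filter, libraries in the fit, replicate block and trend. No sequence of these genes was used here. The values of 1 gene of the lists are not reported here, and the counts over the lists include it.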

Additional observations from a re-analysis of the deposited data

How the results depend on the processing

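Scaling between libraries was the choice that moved most. Without scaling, 8348 genes were called in DP against LL and 7043 in LG against LL, against 3321 and 2544 with it, and a pseudocount of 0.1 gave 3912 in LG against LL. In the 6 other pathway groups the calls without scaling were 19 (15 higher and 4 lower) in DP against LL and 14 (11 higher and 3 lower) in LG against LL, against 11 and 5. Of the 10 mucin and GALNT genes, 8 were called in DP against LL without scaling against 5, and their median log2 fold change was 1.54 in DP against LL and 0.67 in LG against LL. XDH in LG against LL turned from -1.03 to 0.15 without scaling, and the median of all genes moved by 1.09 and 0.93. With a pseudocount of 0.1, 7 of the 10 were called in DP against LL (4 higher and 3 lower) and 5 in LG against DP (2 higher and 3 lower). It also changed the size of fold changes, to -5.55 for MUC1, 2.94 for GALNT6 and 4.38 for GALNT15 in DP against LL. MUC20 stood at 3.83 in LG against DP. For the called changes of MUC1, MUC15, MUC20, GALNT6 and GALNT15, direction and call were kept under all 17 alternatives, and for GALNT3 under all but no scaling. Libraries with the same replicate number come from different goats and are not known to share more than the number. With the replicate block 5, 5 and 4 of the 10 genes were called in the 3 comparisons, as without it, 3340, 2564 and 1986 of all genes, and it changed no call of a gene named here. Leaving out 1 library at a time gave 5 to 6, 5 and 4 called of the 10 genes in DP against LL, LG against LL and LG against DP, with 3075 to 3422, 2400 to 2576 and 1738 to 2004 of all genes. MUC1 in LG and DP and MUC20 in LL and DP lie below 2 FPKM, where the precision of a value is not known.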
